A study of Mus musculus with 15 samples.

Results

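Serine proteases of the kallikrein (Klk), Prss and transmembrane (Tmprss, hepsin and matriptase) families, and the serpins and Spink proteins that inhibit such enzymes, were examined in the anterior prostate of 15 mice. RNA of each mouse was measured on 1 single-colour Illumina BeadArray. Members were the genes whose deposited name began with Klk, Prss, Tmprss or Spink and a digit, began with Serpin, or was Hpn or St14. The rule leaves out 3 names, which were not considered. The rule found 126 names, which stand for 124 genes of 28909 on the array and 184 probes. There were 25 kallikreins, 17 Prss proteases, 16 transmembrane proteases, 23 serpins of clade A, 25 of clade B, 8 Spink proteins and 10 serpins of the other clades.

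The mice formed 3 groups. Castrated mutant mice (n = 6) and intact mutant mice (n = 6) had the same genotype, and intact control mice (n = 3) were described by the submitters as wild type in phenotype. All 15 mice, controls included, carried the same heterozygous knock-in allele that holds an inducible Cre recombinase, and the mutant mice also had both copies of a second gene floxed. The recombinase is meant to act in luminal prostate cells and not in every cell of the lobe. Which cells lost the floxed gene was not measured here. The labels used here list no treatment and do not say whether or how the recombinase was induced, and they state neither the strain, the age nor the time since castration. Castration was done in mutant mice alone, so no castrated control was measured.

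Serine proteases are made as inactive precursors that another protease cuts to switch them on. Most serpins, though not all, are suicide inhibitors that trap a protease in a covalent complex, whereas the Kazal domains of Spink proteins plug the active site reversibly. The prostate secretes kallikreins into seminal fluid, the best known being human prostate-specific antigen, whose gene is driven by the androgen receptor. In the mouse the kallikreins include a large group of closely related Klk1 and Klk1b genes.

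Values are log2 intensities, and a probe counted as above background when it exceeded the array's own limit, which lay between 7.27 and 7.39. Of the 124 members, 62 had a probe above the limit on at least 3 arrays and were tested, and the other 62 were not. The untested ones included maspin (Serpinb5), which stayed under the limit on all 15 arrays. The luminal keratin Krt8 was between 14.63 and 14.83 in castrated mutant, 14.04 and 14.80 in intact mutant and 13.28 and 13.49 in control prostate. Other luminal markers did not all follow it. Of 10 tested, 3 were higher and 3 lower in intact mutant than in control prostate. The summed intensity of 9 of them was between 59711 and 66045 in castrated mutant, 39913 and 77553 in intact mutant and 72952 and 85311 in control prostate. The prostate secretory gene Pbsn was at background on all 12 mutant arrays and between 11.77 and 11.88 in control. Some arrays stood apart. The summed intensity of 6 seminal vesicle markers was 97042 and 141989 on intact mutant arrays 2 and 3 and 138180 and 109444 on control arrays 2 and 3, whereas it was between 869 and 21727 on the other 11. Castrated arrays 1 and 5 kept the androgen-regulated secretory gene Msmb at 11.41 and 12.85, against 7.11 to 7.39 on the other castrated arrays. Msmb was 7.31 on intact mutant array 1, between 10.47 and 12.69 on the other intact mutant arrays, and 14.31, 12.48 and 9.45 on control arrays 1 to 3. In whole-lobe RNA, fewer cells of a type and less RNA per cell cannot be told apart.

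Intact mutant prostate was compared with intact control prostate to see what the genotype changed. Of the 62 tested members, 25 were higher and 6 lower in intact mutant prostate at a limma adjusted p under 0.05. Over all 16634 genes tested, 18.3% were higher and 25.4% lower. The filter asks for 3 arrays above the limit, so a gene at background in all controls was tested only through its mutant arrays. These counts therefore depend in part on the filter. The median log2 fold change was 0.40 for the tested members and -0.04 for all genes. The increases were led by Tmprss4, Serpinb11, Prss27 and Prss32, whose fitted probes were at background in control, and the decreases by Spink8, Serpina5 and Serpine2. Of 7 basal epithelial markers, 5 were higher and 2 lower in intact mutant prostate, with summed intensities between 35445 and 57816 there and 5802 and 8056 in control. Their part in the members' values was not tested. With each array left out in turn, 2437 to 3136 of all genes were higher, against 3043 with all arrays. Without control array 2, or without control array 3, the number of higher members was 16. Without the 4 arrays high in seminal vesicle transcripts, which leaves 1 control array, it was 9 and the number lower was 5, beside 8.49% and 13.5% of all genes.

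**Figure D1:**
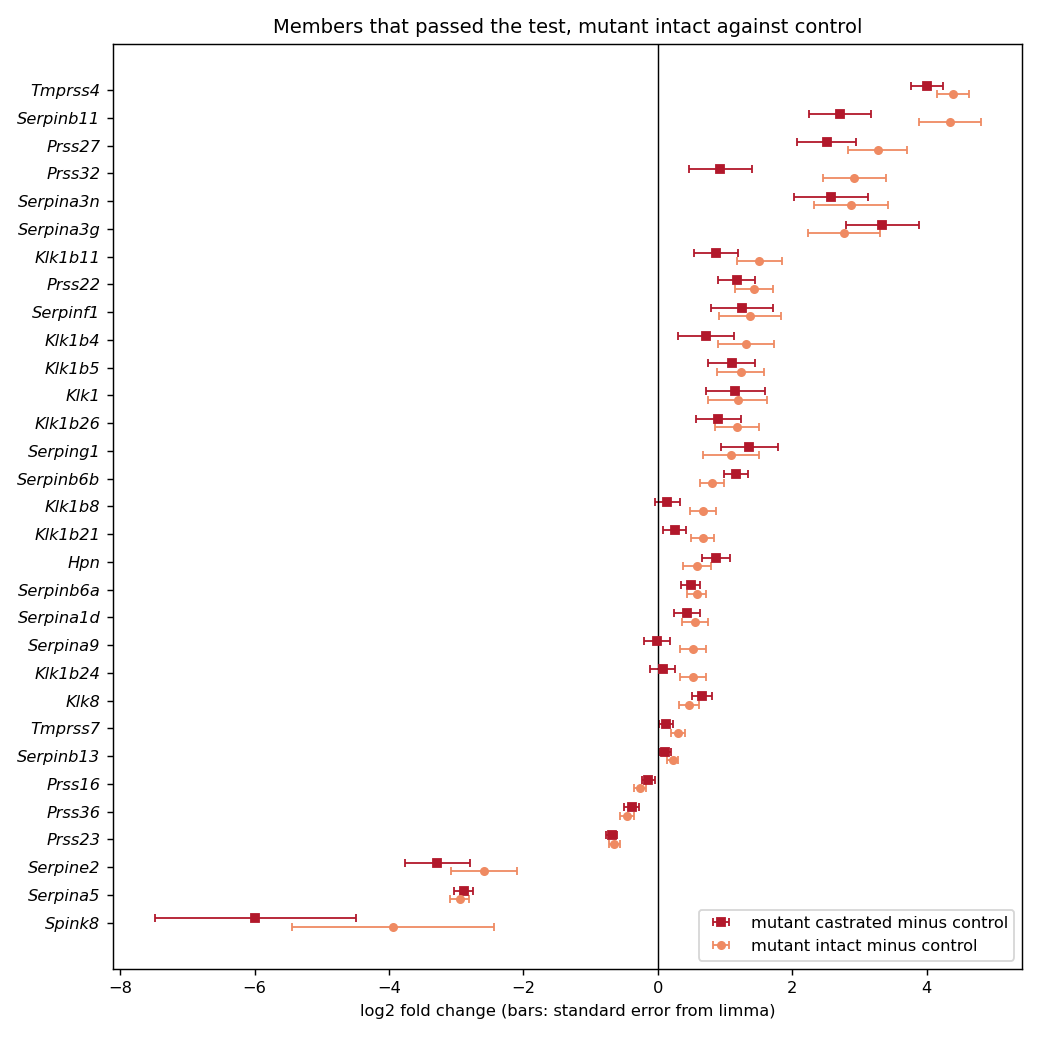
Log2 fold change (horizontal axis) with its limma standard error for the 31 members that passed the test in intact mutant against control prostate, with the castrated mutant against control value of the same gene as squares. Tmprss4 stands highest at 4.39 and Spink8 lowest at -3.94 in intact mutant prostate, and Prss32 shows one of the widest gaps between the intact (2.92) and castrated (0.93) mutant values. Both comparisons share the 3 control arrays.

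Among the transmembrane proteases, 3 of 9 tested members rose and none fell, beside 18.3% of all genes higher and 25.4% lower. Tmprss4, a type II transmembrane protease known for its expression in several human cancers, had the lowest, median and highest values 10.93, 11.27 and 11.77 in intact mutant prostate, against 6.88, 6.94 and 6.92 on control arrays 1 to 3. The groups lay far apart, with every control array below the background limit. The rise was at least 15.2-fold (log2 fold change 4.39, SE 0.24, limma adjusted p = 2.29e-09). A second probe of Tmprss4 differed by 4.18 and another, dimmer one by 0.49. Hepsin (Hpn), a membrane protease known to be overexpressed in human prostate cancer, had the lowest, median and highest values 7.24, 7.87 and 8.21 in intact mutant prostate, against 7.47, 6.98 and 7.33 on control arrays 1 to 3. These ranges overlapped, and the difference of 0.58 on the log2 scale (SE 0.21, limma adjusted p = 0.0375) lost its call without control array 2 or 3, or without any of intact mutant arrays 2 to 6, with limma adjusted p between 0.0505 and 0.172. Without the 4 arrays high in seminal vesicle transcripts the hepsin difference was 0.29 (limma adjusted p = 0.597). The other member that rose, Tmprss7, had a log2 fold change of 0.30 and kept its call in 20 of 27 alternatives, losing it among others without control array 1 or 3 and without intact mutant array 2 or 6.

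Matriptase (St14) and Tmprss13, a related membrane protease and the brightest of the group, were well above background everywhere and did not pass the test. St14 was between 10.36 and 10.97 in intact mutant prostate and measured 10.45, 10.48 and 10.42 in control. Its log2 fold change was 0.19 (SE 0.31). That of Tmprss13, the next member after Tmprss4 in order along chromosome 9, was -0.36 (SE 0.31). The pair therefore gave very different values, the fitted probe of Tmprss4 at background in all controls and that of Tmprss13 at 10.85, 11.21 and 10.88 there.

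Of 9 tested Prss proteases, 3 rose and 3 fell, beside 18.3% and 25.4% of all genes. The 3 that rose, Prss27, Prss32 and Prss22, encode tryptase-like proteases and lie among 6 neighbouring members on chromosome 17 in the RefSeq gene table of GRCm38.p6. The other members of that cluster, Prss33, Prss21 and Prss30, were not above background on enough arrays to be tested. Prss27 (marapsin) had the lowest, median and highest values 9.25, 10.63 and 10.84 in intact mutant prostate, against 6.97, 7.02 and 7.16 on control arrays 1 to 3, and was at least 7.69-fold higher (log2 fold change 3.27, SE 0.44, limma adjusted p = 2.32e-05). Prss32 had 9.03, 9.75 and 11 in intact mutant prostate, against 6.97, 6.94 and 7.0 on control arrays 1 to 3, and was at least 5.71-fold higher (log2 fold change 2.92, SE 0.47, limma adjusted p = 0.000144). For both genes each intact mutant array was well above the highest control. Prss22 (tryptase epsilon) had 7.85, 8.51 and 9.30 in intact mutant prostate, against 6.94, 7.37 and 7.06 on control arrays 1 to 3, and was at least 2.26-fold higher (log2 fold change 1.43, SE 0.28, limma adjusted p = 0.000696).

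**Figure D2:**
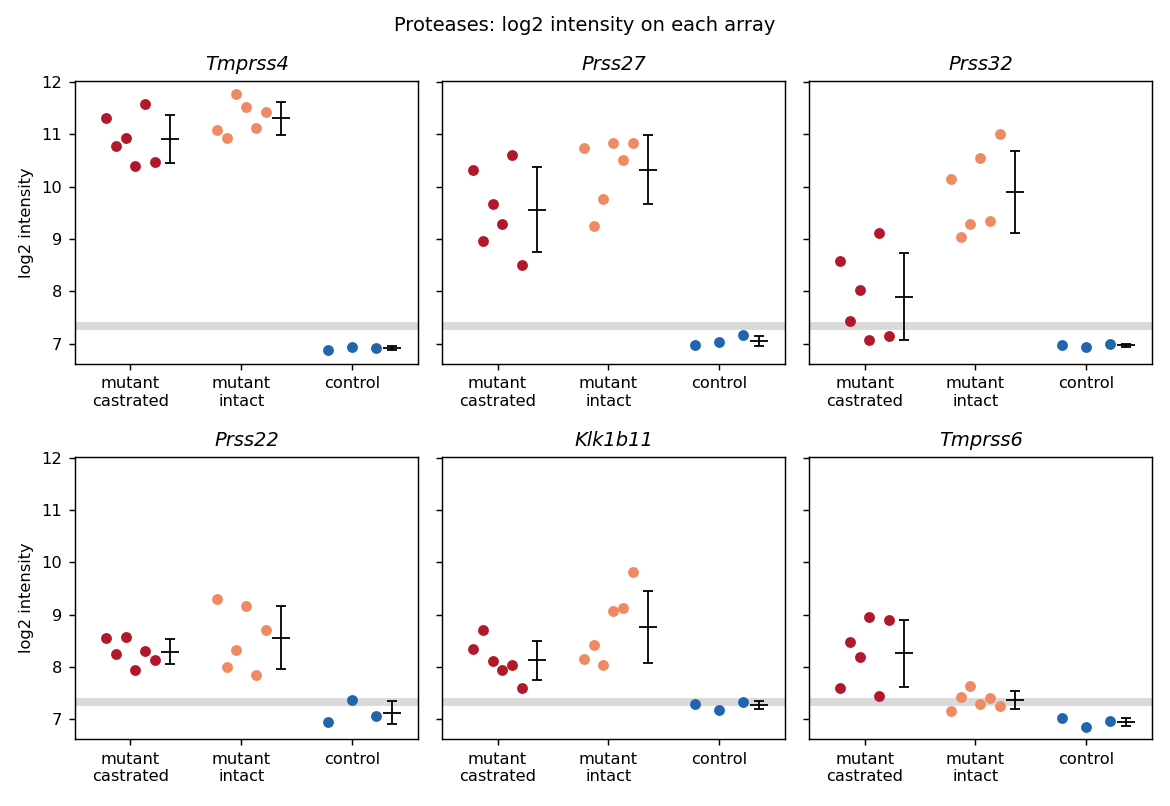
Log2 intensity (vertical axis) of 6 proteases on each array in castrated mutant, intact mutant and control prostate, with the group mean and SD as black bars and the range of the background limit (7.27 to 7.39) in grey. Tmprss4, Prss27 and Prss32 sit at or below 7.16 in control, while Tmprss6 is highest in castrated mutant prostate.

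Of the called members that the RefSeq promoter table holds, the promoters of the 3 with the largest rises and the 2 with the largest falls are shown because Prss27 and Prss32 moved together and because the androgen receptor is the classical regulator of prostate secretory genes. Each window runs from 250 bases before to 50 after a gene's start in build GRCm38.p6, written 5′ to 3′ on the gene's strand, with motif matches in capitals. The motifs searched on both strands were AGAACA (the core of an androgen receptor site, in 19.0% of all 32851 promoters of the table), TGANTCA (AP-1, in 7.81%), TTCNNNGAA (STAT, in 8.30%) and TATAAA (the core promoter box of that name, in 13.6%).
Prss27 promoter (chr17:24037993-24038292, + strand): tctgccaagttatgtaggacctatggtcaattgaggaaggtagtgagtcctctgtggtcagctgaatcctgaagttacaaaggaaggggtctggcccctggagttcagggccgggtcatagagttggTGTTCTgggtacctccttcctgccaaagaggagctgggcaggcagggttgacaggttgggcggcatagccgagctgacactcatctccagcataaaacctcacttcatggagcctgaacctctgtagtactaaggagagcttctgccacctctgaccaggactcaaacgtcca
Prss32 promoter (chr17:23853522-23853821, + strand): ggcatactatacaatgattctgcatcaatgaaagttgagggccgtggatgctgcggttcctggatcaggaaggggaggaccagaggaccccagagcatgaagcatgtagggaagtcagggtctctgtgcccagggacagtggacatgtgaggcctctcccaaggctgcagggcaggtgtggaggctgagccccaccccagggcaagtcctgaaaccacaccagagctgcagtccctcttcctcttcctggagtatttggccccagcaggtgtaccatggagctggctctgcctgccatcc
Serpinb11 promoter (chr1:107362064-107362363, + strand): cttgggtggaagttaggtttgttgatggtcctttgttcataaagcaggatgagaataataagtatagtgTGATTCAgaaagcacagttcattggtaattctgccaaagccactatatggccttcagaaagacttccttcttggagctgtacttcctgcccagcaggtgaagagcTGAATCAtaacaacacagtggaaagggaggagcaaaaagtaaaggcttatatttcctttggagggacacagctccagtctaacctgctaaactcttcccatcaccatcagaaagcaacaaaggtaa
Serpina5 promoter (chr12:104100863-104101162, + strand): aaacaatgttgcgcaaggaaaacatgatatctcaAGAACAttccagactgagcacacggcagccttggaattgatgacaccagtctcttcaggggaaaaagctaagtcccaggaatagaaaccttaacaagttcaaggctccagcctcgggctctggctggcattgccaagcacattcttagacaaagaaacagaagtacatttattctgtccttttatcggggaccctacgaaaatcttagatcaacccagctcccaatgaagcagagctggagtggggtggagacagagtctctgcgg
Serpine2 promoter (chr1:79858616-79858915, - strand): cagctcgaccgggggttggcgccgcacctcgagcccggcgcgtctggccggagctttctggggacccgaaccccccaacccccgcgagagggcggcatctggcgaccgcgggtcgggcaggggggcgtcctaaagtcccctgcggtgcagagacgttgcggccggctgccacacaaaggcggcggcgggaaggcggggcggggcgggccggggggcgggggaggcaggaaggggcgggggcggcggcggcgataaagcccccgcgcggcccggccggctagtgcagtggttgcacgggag
The Prss27 and Serpina5 windows each hold 1 androgen receptor core, the Serpinb11 window holds 2 AP-1 matches, and the Prss32 and Serpine2 windows hold none of the 4 motifs. A match is a run of letters and not a measured binding site.

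The Prss members that fell moved less. Prss23, a secreted protease, had the lowest, median and highest values 7.76, 7.92 and 8.14 in intact mutant prostate, against 8.56, 8.52 and 8.64 on control arrays 1 to 3 (log2 fold change -0.65, SE 0.08, limma adjusted p = 1.69e-05). Every intact mutant array was below every control, although 2 further probes of Prss23 were at background throughout. Prss36 (polyserase-2) had 7.21, 7.44 and 7.55, against 7.97, 7.92 and 7.69 on control arrays 1 to 3 (log2 fold change -0.46, SE 0.11, limma adjusted p = 0.00256). Prss16, known as a thymus protease, fell by 0.27 (SE 0.09), close to background, and lost its call without control array 1 (limma adjusted p = 0.0517) or 3 (limma adjusted p = 0.144). Prostasin (Prss8), which activates the epithelial sodium channel and was the brightest Prss member, did not pass the test. It had 10.18, 11.27 and 11.55 in intact mutant prostate, against 11.32, 11.51 and 11.16 on control arrays 1 to 3 (log2 fold change -0.20, SE 0.27).

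All 25 kallikreins lie in 1 cluster on chromosome 7. Of the 13 tested, 9 rose in intact mutant prostate and none fell, beside 18.3% of all genes higher and 25.4% lower, and the median log2 fold change was 0.67. The rise was modest and close to background. Klk1b11 had the lowest, median and highest values 8.03, 8.74 and 9.82 in intact mutant prostate, against 7.29, 7.18 and 7.33 on control arrays 1 to 3, and was at least 2.62-fold higher (log2 fold change 1.51, SE 0.33, limma adjusted p = 0.00165). Its second probe differed by 0.85. Klk1b4, whose product is a subunit of the nerve growth factor complex, had 8.44, 8.97 and 9.88, against 7.14, 7.30 and 8.83 on control arrays 1 to 3. The control arrays spread widely for Klk1b4 and overlapped the mutant range. The difference of 1.31 on the log2 scale (SE 0.42, limma adjusted p = 0.0202) lost the call without control array 1 (limma adjusted p = 0.121) or 2 (limma adjusted p = 0.1), and its other 2 probes were at background.

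Klk1, the tissue kallikrein that releases kinins, had 7.5, 7.87 and 9.20 in intact mutant prostate, against 7.0, 6.92 and 6.87 on control arrays 1 to 3, and was at least 1.67-fold higher (log2 fold change 1.19, SE 0.44, limma adjusted p = 0.0410). The groups did not overlap, but the call was lost without any of the 3 control arrays and without intact mutant array 4 or 6 (limma adjusted p between 0.0722 and 0.104). Klk1b21 rose by 0.67 (SE 0.17, limma adjusted p = 0.00448), Klk1b8 by 0.67 (SE 0.19) and Klk1b24 by 0.52 (SE 0.19). The call was lost for Klk1b8 without control array 3 (limma adjusted p = 0.0529). For Klk1b24 it was lost without any control array and without intact mutant array 2, 5 or 6 (limma adjusted p between 0.0548 and 0.0972). With the 4 arrays high in seminal vesicle transcripts left out, 1 control array remains. The log2 fold changes were then 1.26 for Klk1, 0.79 for Klk1b8 and 0.53 for Klk1b24. Their calls were lost there, as were those of Klk1b26, Klk1b5 and Klk8, whereas Klk1b11, Klk1b21 and Klk1b4 kept theirs. Klk1 and the Klk1b genes are near-identical copies, so signal of one on the probe of another cannot be told apart, and their rises are not separate observations. Klk1b22, which was not called, was chosen after its values were seen. It measured 10.49 on intact mutant array 5 and 10.36 on control array 3 but at most 7.41 on the other 13 arrays.

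The serpins moved in both directions. Of the 11 tested clade A serpins 4 rose and 1 fell, and of the 9 tested clade B serpins 4 rose, beside 18.3% of all genes higher and 25.4% lower. Serpinb11, a clade B serpin of epithelia, had the lowest, median and highest values 10.71, 11.42 and 12.54 in intact mutant prostate, against 7.12, 7.21 and 7.10 on control arrays 1 to 3. It was at least 17.4-fold higher (log2 fold change 4.35, SE 0.46, limma adjusted p = 2.31e-06), with every control array below the limit. Serpinb6b rose by 0.80 (SE 0.18, limma adjusted p = 0.00227). Serpinb6a, an inhibitor of trypsin-like proteases and the brightest clade B member, had 12.22, 12.47 and 13.02 in intact mutant prostate, against 12.02, 11.95 and 11.83 on control arrays 1 to 3 (log2 fold change 0.58, SE 0.14, limma adjusted p = 0.00381). Its second, dim probe differed by -0.32, so the probes of Serpinb6a disagree in direction, and with their mean the call was lost (log2 fold change 0.13, limma adjusted p = 0.338).

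The clade A members that rose most were Serpina3n and Serpina3g, whereas the 3 other Serpina3 genes tested did not pass. Serpina3n, which inhibits granzyme B and neutrophil proteases, had 10.51, 12.66 and 13.47 in intact mutant prostate, against 9.49, 10.26 and 8.85 on control arrays 1 to 3 (log2 fold change 2.87, SE 0.55, limma adjusted p = 0.000613). Serpina3g, an inhibitor of lysosomal cathepsins, had 8.16, 10.06 and 11.13, against 7.03, 7.14 and 7.14 on control arrays 1 to 3, and was at least 5.63-fold higher (log2 fold change 2.77, SE 0.54, limma adjusted p = 0.000714). Neither gene overlapped between the groups, and both calls were lost without the 4 arrays high in seminal vesicle transcripts (1 control array left), with log2 fold changes of 2.77 for Serpina3n (limma adjusted p = 0.0617) and 2.57 for Serpina3g (limma adjusted p = 0.0755). Leukocyte markers moved with them. Of 7 macrophage markers 6 rose, with summed intensities between 12861 and 90987 in intact mutant and 2917 and 3661 in control prostate. Of 5 tested neutrophil markers 3 rose, with sums between 2710 and 15625 in intact mutant and 657 and 796 in control prostate. Their part in the serpin values was not tested. Serpina9, near background, rose by 0.52 (SE 0.19, limma adjusted p = 0.0368) and lost its call without control array 1 or 3, or without intact mutant array 1, 4 or 6 (limma adjusted p between 0.0534 and 0.144).

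Serpina5 fell. This gene encodes protein C inhibitor, which in human seminal plasma binds prostate-specific antigen. It had the lowest, median and highest values 7.35, 7.46 and 7.69 in intact mutant prostate, against 10.89, 10.41 and 9.99 on control arrays 1 to 3 (log2 fold change -2.95, SE 0.14, limma adjusted p = 9.68e-10). All mutant arrays lay just above the background limit, and the second probe of Serpina5 was at background throughout. Serpine2, protease nexin-1, which inhibits thrombin and urokinase and is abundant in mouse seminal vesicle, had 9.34, 10.07 and 12.43 in intact mutant prostate, against 13.28, 13.13 and 13.03 on control arrays 1 to 3 (log2 fold change -2.59, SE 0.49, limma adjusted p = 0.000572). A second probe differed by -2.36. Within the intact mutant group Serpine2 was highest on arrays 2 and 3 (11.40 and 12.43), which were also the arrays high in seminal vesicle transcripts. Without the 4 such arrays the log2 fold change was -3.39, a choice that takes out the highest mutant values. All 6 smooth muscle markers fell as well, with sums between 3978 and 25126 in intact mutant and 55588 and 64789 in control prostate. Their part in the Serpine2 value was not tested.

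**Figure D3:**
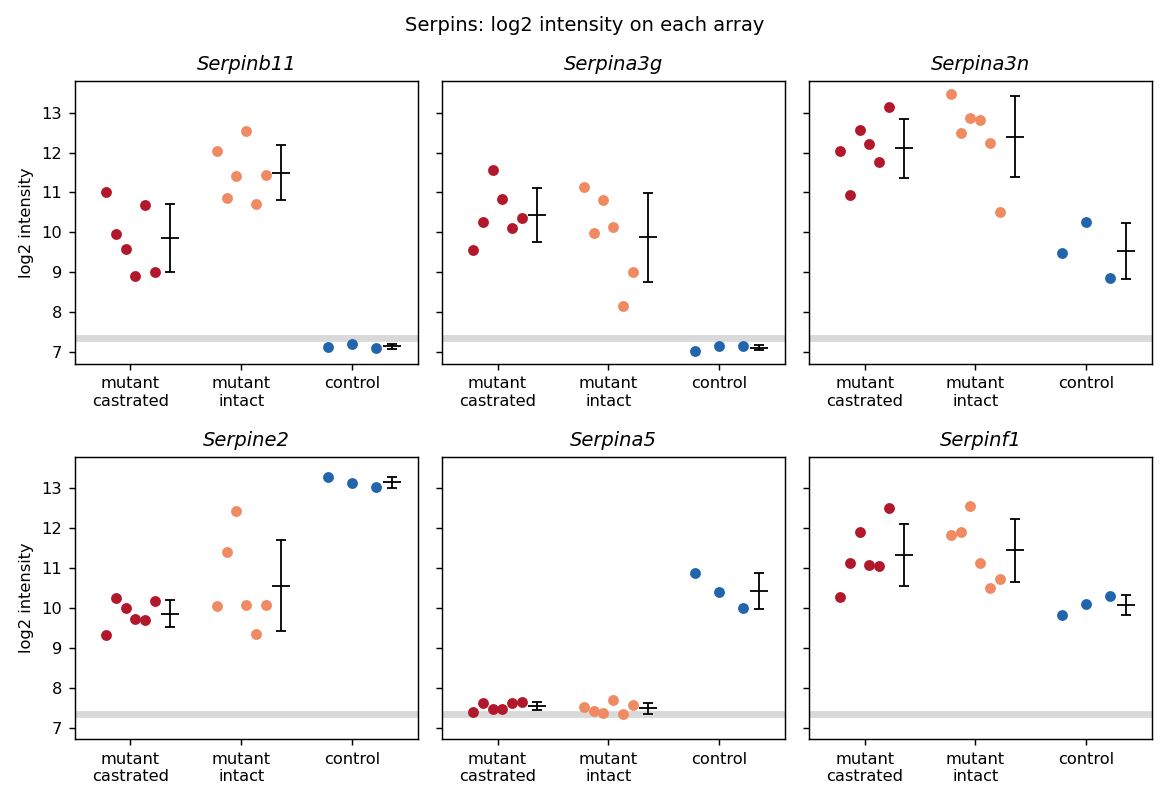
Log2 intensity (vertical axis) of 6 serpins on each array in castrated mutant, intact mutant and control prostate, with the group mean and SD as black bars and the range of the background limit (7.27 to 7.39) in grey. Serpinb11 and Serpina3g are at background in control, whereas Serpine2 and Serpina5 are highest there.

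Among the other serpins, Serpinf1, the secreted anti-angiogenic factor PEDF, had 10.51, 11.48 and 12.56 in intact mutant prostate, against 9.82, 10.11 and 10.31 on control arrays 1 to 3 (log2 fold change 1.37, SE 0.46, limma adjusted p = 0.0258). A second, dimmer probe differed by -0.15. The Serpinf1 call was lost without control array 1 (limma adjusted p = 0.0966) or 2 (limma adjusted p = 0.065) and with the mean of the probes (limma adjusted p = 0.0517). Serping1, the C1 inhibitor of complement, had 11.56, 12.43 and 13.28 in intact mutant prostate, against 11.11, 11.35 and 11.39 on control arrays 1 to 3 (log2 fold change 1.09, SE 0.42, limma adjusted p = 0.0460). It lost its call without any control array, without any of intact mutant arrays 1 to 4 and without castrated array 3 or 4 (limma adjusted p between 0.051 and 0.136). Serpinh1, the collagen chaperone of the endoplasmic reticulum, did not pass the test (log2 fold change 0.80, SE 0.32, limma adjusted p = 0.059), and neither did antithrombin (Serpinc1, 0.05) or neuroserpin (Serpini1, -0.18).

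Of 5 tested Spink members, Spink8 alone passed the test, as lower, beside 25.4% of all genes lower and 18.3% higher. Its values split the intact mutant group. Spink8, a Kazal-type inhibitor, measured 7.02, 13.54, 14.98, 7.09, 7.76 and 7.75 on intact mutant arrays 1 to 6, against 13.96, 13.07 and 13.87 on control arrays 1 to 3. Arrays 2 and 3 were at the control level and the other 4 near background. The log2 fold change was -3.94 (SE 1.5, limma adjusted p = 0.0447), and the call was lost without any control or castrated array and without intact mutant array 1, 4, 5 or 6 (limma adjusted p between 0.0518 and 0.119). Without the 4 arrays high in seminal vesicle transcripts the log2 fold change was -6.55. That choice takes out intact mutant arrays 2 and 3, where Spink8 was high, so a larger fall was built in. It also leaves 1 control array, so the control spread was not measured. The seminal vesicle markers Svs2, Pate4 and Svs5 measured 7.01, 7.64 and 9.75 on control array 1, where Spink8 was 13.96. The part of seminal vesicle transcripts in the Spink8 values was not tested.

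Spink11, Spink10 and the clade A serpin Serpina1f were chosen after their values were seen. Intact mutant arrays 2 and 3 gave 9.99 and 12.39 for Spink11, 7.82 and 9.70 for Spink10 and 8.46 and 10.86 for Serpina1f. On the other 13 arrays Spink11 reached at most 7.59, Spink10 at most 7.56 and Serpina1f at most 7.74. The epididymal gene Crisp1 was 9.76 and 12.09 on the same intact mutant arrays and at most 8.0 elsewhere. The sum of 3 epididymal markers was 1201 and 4954 there and between 446 and 542 on the other arrays, and its part in these values was not tested. Spink5, which encodes the kallikrein inhibitor LEKTI of skin, had the lowest, median and highest values 7.57, 8.46 and 10.83 in intact mutant prostate, against 6.96, 6.98 and 6.96 on control arrays 1 to 3. The groups did not overlap, but the spread was wide and the test was not passed (log2 fold change 1.84, SE 0.90, limma adjusted p = 0.115).

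**Figure D4:**
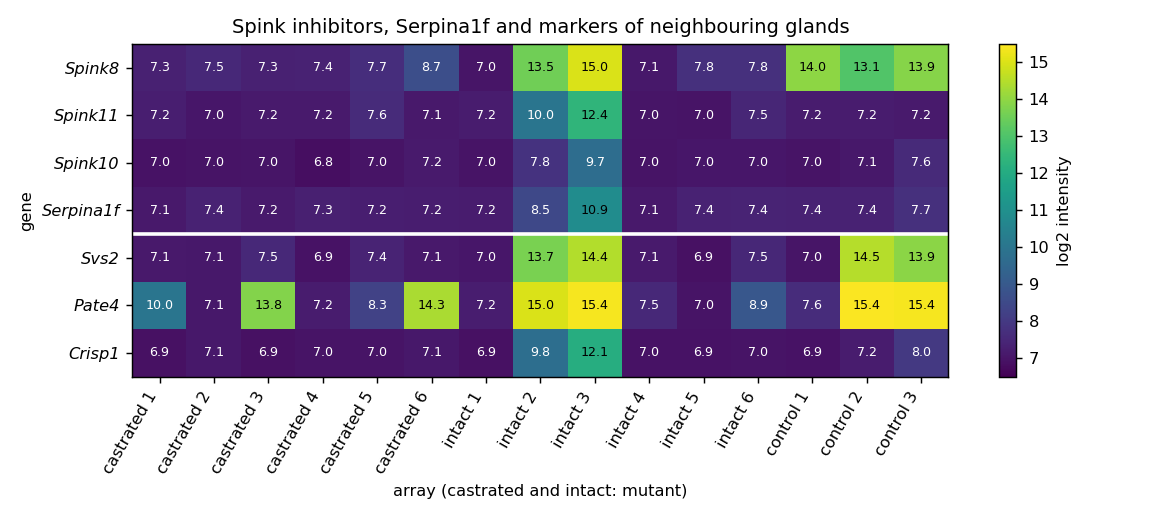
Log2 intensity (colour and printed value) of 3 Spink inhibitors and Serpina1f above the line, and of the seminal vesicle genes Svs2 and Pate4 and the epididymal gene Crisp1 below it, on each array. Spink11, Spink10, Serpina1f and Crisp1 are highest on intact mutant arrays 2 and 3, and Spink8 is high on these and on all 3 control arrays.

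Castrated and intact mutant prostate were then compared to see what castration changed. No member passed the test in either direction, and neither did any of the 16634 genes (0.0%). At an unadjusted limma p under 0.05 there were 13 of 62 members, beside 15.8% of all genes. The median log2 fold change of the tested members was -0.12, against 0.01 for all genes. The lowest p-values were those of Prss32, Serpinb11 and Tmprss6. Prss32 had the lowest, median and highest values 7.07, 7.74 and 9.11 in castrated mutant prostate, against 9.03, 9.75 and 11 in intact mutant prostate (log2 fold change -2.0, SE 0.39, limma adjusted p = 0.0605). The ranges met only at castrated array 5 (9.11) and intact array 2 (9.03), and castrated arrays 4 and 6 were at background. Serpinb11 had 8.91, 9.77 and 11 in castrated mutant prostate, against 10.71, 11.42 and 12.54 in intact mutant prostate (log2 fold change -1.64, SE 0.37, limma adjusted p = 0.0819).

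Tmprss6, matriptase-2, which in the liver restrains the iron hormone hepcidin, ran the other way. It measured 7.60, 8.47, 8.19, 8.96, 7.44 and 8.90 on castrated arrays 1 to 6, against 7.16, 7.35 and 7.64 (lowest, median and highest) in intact mutant prostate (log2 fold change 0.89, SE 0.23, limma adjusted p = 0.1). A second probe differed by 0.62. Serpini1 differed by 0.28 (SE 0.11), Serpina9 by -0.54 (SE 0.16), Klk1b8 by -0.53 (SE 0.16), Klk1b24 by -0.45 (SE 0.15) and Klk1b21 by -0.42 (SE 0.14). None of these passed the test, and most of these levels were close to background.

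Castrated arrays 1 and 5, on which Msmb stayed high, were also the castrated arrays nearest to the intact level for several members. Prss32, Serpinb11, Prss27 and St14 had their 2 highest castrated values there, and Tmprss6 its 2 lowest. Spink5 was 10.08 and 10.81 on arrays 1 and 5 and between 6.90 and 6.99, below the background limit, on the other 4. Without those 2 arrays, 6 members were lower and 2 higher in castrated mutant prostate, beside 3.71% and 6.41% of all genes. The lower ones were Prss32 (-2.47, SE 0.35, limma adjusted p = 0.0019), Serpinb11 (-2.13, SE 0.32), Spink5 (-1.85, SE 0.49), Prss27 (-1.22, SE 0.31), St14 (-0.98, SE 0.18) and Tmprss4 (-0.67, SE 0.16), as log2 fold changes. The higher ones were Tmprss6 (1.26, SE 0.14, limma adjusted p = 0.000539) and Serpini1 (0.44, SE 0.08). These 2 arrays were left out after the data were seen, for their levels of androgen-regulated genes, so the choice favours genes with the same pattern and these calls are a description. Leaving out array 1 or array 5 alone gave calls for Prss32, Serpinb11 and Tmprss6, with limma adjusted p between 0.0255 and 0.0384.

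**Figure D5:**
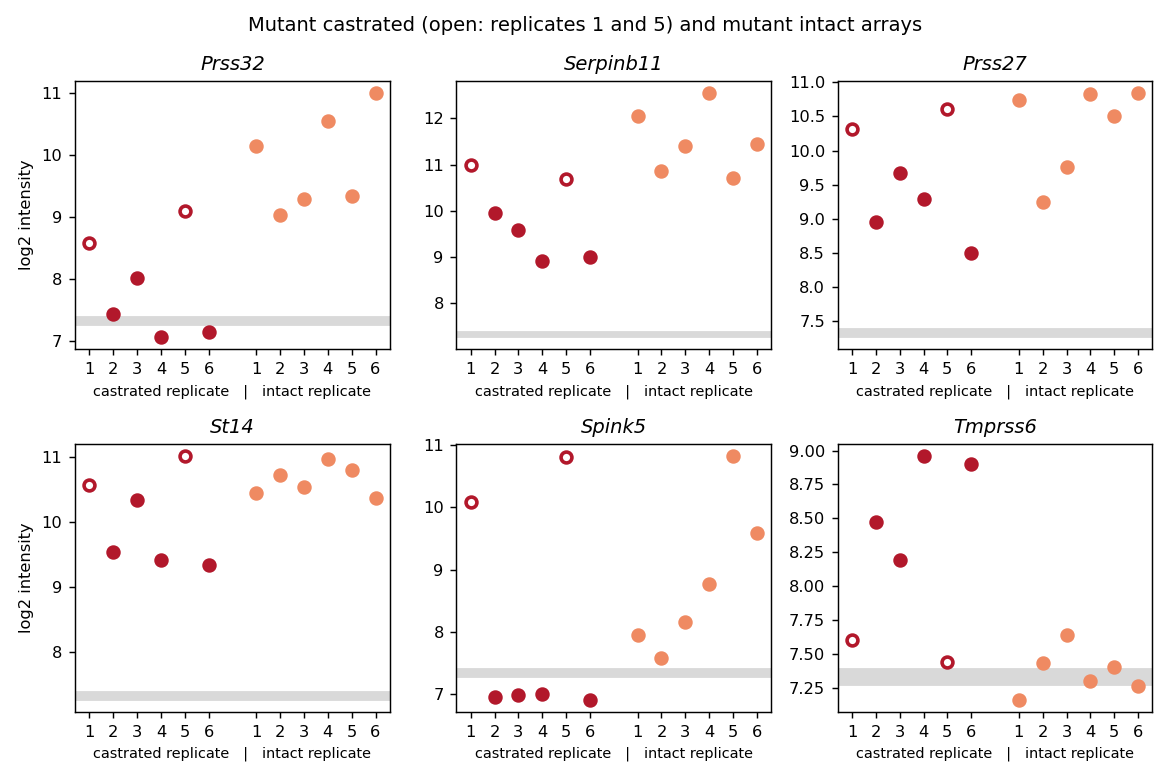
Log2 intensity (vertical axis, scaled for each gene) of 6 members on castrated mutant arrays 1 to 6 (red, arrays 1 and 5 open) and intact mutant arrays 1 to 6 (orange), with the background limit in grey. On arrays 1 and 5 Prss32, Serpinb11, Prss27, St14 and Spink5 are higher, and Tmprss6 lower, than on the other castrated arrays.

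Castrated mutant prostate was set against control prostate to show which levels differed from control after castration too. This comparison changes genotype and castration together and shares its control arrays with the first. Of the 62 tested members 17 were higher and 5 lower, beside 20.1% and 24.7% of all genes. With each array left out in turn, 2660 to 3621 of all genes were higher, against 3336 with all arrays. Without control array 1 the number of higher members was 11. Without the 4 arrays high in seminal vesicle transcripts it was 6 and the number lower was 4, beside 9.69% and 14.2% of all genes. The median log2 fold change was 0.11 for the tested members and -0.03 for all genes.

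Tmprss4 stayed far above control, with the lowest, median and highest values 10.40, 10.85 and 11.58 in castrated mutant prostate, and was at least 11.5-fold higher (log2 fold change 4.0, SE 0.24, limma adjusted p = 5.46e-09). Serpina3g was at least 8.38-fold higher than in control, Serpinb11 at least 5.56-fold and Prss27 at least 4.52-fold. Serpina3n had 10.94, 12.13 and 13.13 in castrated mutant prostate (log2 fold change against control 2.58, SE 0.55, limma adjusted p = 0.00141), and 2.62 without the 4 arrays high in seminal vesicle transcripts (limma adjusted p = 0.0637). Prss32, in contrast, did not pass the test against control (log2 fold change 0.93, SE 0.47, limma adjusted p = 0.129). Tmprss6, which did not pass in intact mutant prostate, did so here, at least 1.84-fold higher (log2 fold change 1.31, SE 0.28, limma adjusted p = 0.00135). A second probe of Tmprss6 differed by only 0.35, and by -0.27 between intact mutant and control prostate, where the fitted probe differed by 0.41. The Tmprss6 call was lost with another background correction (log2 fold change 0.65, limma adjusted p = 0.0756). It was also lost without the 4 arrays high in seminal vesicle transcripts (log2 fold change 1.24, 1 control array left). Hepsin was 0.87 higher on the log2 scale (SE 0.21, limma adjusted p = 0.00357) without overlap between the groups, and 0.66 higher without the 4 arrays high in seminal vesicle transcripts (limma adjusted p = 0.183). On the same scale Serpinb6b was 1.16 higher (SE 0.18, limma adjusted p = 0.000102) and Prss22 1.17 higher (SE 0.28, limma adjusted p = 0.00319).

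The leading decreases against control were also called after castration. Spink8 measured 7.33, 7.54, 7.31, 7.36, 7.69 and 8.66 on castrated arrays 1 to 6, against 13.96, 13.07 and 13.87 on control arrays 1 to 3 (log2 fold change -5.99, SE 1.5, limma adjusted p = 0.00443). No castrated array came near the control level. The SE pools the spread of all 3 groups, and the SD of Spink8 was 3.58 in intact mutant, 0.52 in castrated mutant and 0.49 in control prostate. It is therefore not a measure of the spread of the 2 groups compared here. The seminal vesicle gene Pate4 measured 14.35 on castrated array 6 and 13.84 on castrated array 3, which had the highest and the lowest Spink8 value of the group. The seminal vesicle genes Svs2 and Svs5 did not share this level. They measured 7.11 and 7.62 on castrated array 6, and 7.54 and 11.05 on castrated array 3. Serpine2 had the lowest, median and highest values 9.33, 9.87 and 10.25 in castrated mutant prostate (log2 fold change against control -3.28, SE 0.49, limma adjusted p = 6.83e-05), and Serpina5 had 7.40, 7.54 and 7.65 (log2 fold change -2.89, SE 0.14, limma adjusted p = 9.95e-10). Prss23 and Prss36 had the smaller log2 fold changes of -0.69 and -0.39. The Prss36 call was lost without control array 1 (limma adjusted p = 0.0509) and without the 4 arrays high in seminal vesicle transcripts (log2 fold change -0.49, 1 control array left). It was also lost without the castrated mice with ID numbers above 4000 (log2 fold change -0.26, limma adjusted p = 0.0939). Serpinf1, Serping1 and Serpinb6a lost their calls against control there as well. No control or intact mutant mouse had so high a number, and the labels do not say what else set these mice apart.

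Other genes of the same system were read from 3 lists. Of 30 tested serine proteases outside the named families, 9 were higher and 3 lower in intact mutant than in control prostate, beside 18.3% of all genes higher and 25.4% lower. Hgfac, which activates hepatocyte growth factor, had a log2 fold change of 3.38 (SE 0.34), complement C2 of 2.89 (SE 0.18) and tissue plasminogen activator (Plat), a target of Serpine2 and Serpini1, of 2.38 (SE 0.21). The lower ones were Htra4 (-2.32, SE 0.13), Masp2 of the lectin complement pathway (-1.51, SE 0.20) and protein C (Proc, -0.74, SE 0.13), whose activated form Serpina5 inhibits and which was not above background in intact mutant prostate.

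Of 22 tested inhibitors of other classes, 5 were higher and 1 lower in intact mutant prostate, beside the same 18.3% and 25.4% of all genes. The whey acidic protein family members Wfdc18 (at least 49.9-fold) and Wfdc2 (log2 fold change 5.76, SE 0.28) led, followed by Slpi, the secretory leukocyte protease inhibitor (1.69, SE 0.56). The tissue factor pathway inhibitor Tfpi was lower (-0.55, SE 0.12). Of 29 tested receptors and substrates, 16 were higher and 1 lower, against the same background, and 10 and 0 without the 4 arrays high in seminal vesicle transcripts (8.49% and 13.5% of all genes). The sodium channel subunit Scnn1a, whose channel prostasin activates, had a log2 fold change of 3.20 (SE 0.24), the plasminogen receptor component Anxa2 of 2.76 (SE 0.16) and Igfbp3, which several proteases cleave, of 2.05 (SE 0.34). The growth factor Egf was lower (-3.16, SE 0.71). None of the genes in these 3 lists, and none of all 16634 genes, passed the test between castrated and intact mutant prostate. With castrated arrays 1 and 5 left out, a choice made after the data were seen, 2 of the other serine proteases were higher and 1 lower. The inhibitors of other classes gave 2 and 1, and the receptors and substrates 2 and 2, beside 6.41% and 3.71% of all genes.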

How the data were processed

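Each array came from a different mouse. All levels rest on the authors' deposited table of processed, linear intensity values. How they were corrected for background and normalized is not given in the sources used here, but array medians lay between 151.35 and 152.47. A second deposited table has 15 signal columns named by chip and position only. They were tied to no mouse and not used, so the chip could not serve as a batch. Only its gene names were taken, and they were updated with a RefSeq gene table (GRCm38.p6). Of the 45281 probes, 27760 had a current name, 7994 an older one, 187 an ambiguous one and 9340 an unmatched one. Klk6, which was at background, joins 2 deposited names, one of them ambiguous.

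The background limit was each array's 95th percentile of 1491 olfactory and vomeronasal receptor probes, and between 41.6% and 48.2% of probes exceeded it. Probes above it on at least 3 arrays were kept, and the brightest stood for each of 16634 genes. Log2 intensities were fitted with limma 3.58.1 (R 4.3.3), 1 mean per group over 15 arrays (12 residual degrees of freedom), with a two-sided moderated test and Benjamini-Hochberg adjustment over all genes at 0.05. A fold is given as "at least" where the fitted probe of the dimmer group stayed under the limit on all arrays; each of those arrays then counts with its limit or its own value, whichever is larger, against the mean of the brighter group. Folds of dim genes are understated. On simulated data of the first comparison, 86% of the genes changed by 1 log2 unit were recovered. Only a small part of the 16634 genes was changed there, with independent normal noise, unlike the data. The share is therefore a check of the fit and not an estimate of recovery in these data.

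Members, gene lists and the rule for naming genes were chosen with earlier results of these data known. The rule names up to 10 higher and 10 lower members per comparison, the 8 smallest p-values for castration, the brightest tested member per family, and 12 members in any case; up to 3 genes per list and direction are named. Alternatives covered the filter, probe summary, scaling, background, weights, eBayes options, and arrays left out. The genes targeted in these mice are not reported here. The number of arrays limits the precision.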

Additional observations from a re-analysis of the deposited data

Results flagged for a closer look

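In groups of 6 arrays, a single array far from the others was looked for in 66 groups of values of the named members, and 3 stood out, about the 1 in 20 that chance gives. Prss23 was lowest on castrated array 5 (7.76, the others between 7.88 and 7.95). Prss8 was lowest on intact mutant array 1 (10.18, the others between 11.07 and 11.55), the array with the highest macrophage marker sum (90987). Spink8 was highest on castrated array 6 (8.66, the others between 7.31 and 7.69).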

How the results depend on the processing

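No paired analysis was possible because the replicate numbers are in accession order and pair no mice. Of the 31 members called in intact mutant against control prostate, 12 kept their call in all 28 alternatives, as did 10 of the 22 called in castrated mutant against control, and none of these members reversed in any alternative. The same count was not made over all called genes, so these shares cannot be set against a background. With each array left out in turn, 16 to 26 members were higher in intact mutant than in control prostate, and 11 to 18 in castrated mutant than in control. Over all genes these numbers were 2437 to 3136 and 2660 to 3621. Without the 4 arrays high in seminal vesicle transcripts (chosen after the data were seen), 1413 genes were higher and 2245 lower in intact mutant than in control prostate, against 3043 and 4229 with all arrays, and 9 members were higher. In castrated mutant against control it was 1612 higher and 2354 lower, against 3336 and 4103, with 6 members higher. This leaves fewer arrays and 1 control. Between castrated and intact mutant prostate, where no gene passed with all arrays, array weights gave 401 higher and 226 lower genes (members 1 and 3), and no filter on dim probes gave 1 higher gene. Leaving out each array in turn gave 0 to 192 higher and 0 to 84 lower genes (members 0 to 1 and 0 to 2), the most without castrated array 1 or 5. Leaving out both (chosen after the data were seen) gave 1066 higher and 617 lower genes (members 2 and 6). The cause was not tested. Members near the background limit have levels the arrays do not resolve.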
